A study of Mus musculus with 15 samples.

Results

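The genes described here are the translation initiation factor genes (symbols that begin with Eif1 to Eif6) and the cytosolic aminoacyl-tRNA synthetase genes (a single letter followed by ars or ars1, and Eprs or Eprs1). They were chosen by symbol among the probe sets annotated to exactly 1 gene, and each gene was read on the brightest of its probe sets, by the mean of the 5 treatments. The rule found 64 of 15964 genes, 47 initiation factor genes and 17 synthetase genes, on 130 of 36701 probe sets; 6 further probe sets that carry such a symbol beside another were left out. RNA came from A.E7 T cells, a mouse CD4 T cell clone, so that 1 clone stands for the cell type. The 5 treatments were mock stimulation, anti-TCR alone (called Anergic in the array titles), anti-TCR with CSA, anti-TCR with a PKC inhibitor that the labels do not name (PKCi), and anti-TCR with Rapamycin, PD98059 and SB203580 (Combo). CSA is cyclosporin A, which blocks the phosphatase calcineurin, and PKC is protein kinase C. Rapamycin blocks mTOR, PD98059 blocks the kinase MEK and SB203580 blocks the kinase p38. No doses are given. The RNA of each treatment was a pool of 2, 4 and 6 h, read once on each of 3 chip types (A, B and C), every probe set being on 1 of them, so no difference below has a replicate, an SD over cultures or a test.

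Initiation factors bring the small ribosomal subunit, the initiator tRNA and the mRNA together. In eukaryotic cells eIF2 carries the initiator tRNA, eIF2B recharges eIF2 with GTP, eIF3 is the large scaffold on the small subunit, eIF4F binds the cap and unwinds the leader, and eIF1, eIF1A and eIF5 govern the choice of start codon. Aminoacyl-tRNA synthetases join each amino acid to its tRNA; a group of them sits in a multisynthetase complex and the others act alone. T cells that are triggered through the receptor raise protein synthesis, and several synthetase genes are known targets of Atf4, the transcription factor of the amino acid response, which binds together with C/EBP partners at composite sites.

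A probe set's value is a linear array intensity, and each chip type has a floor at the median of its values (51.1 on A, 69.5 on B and 55 on C), to which lower values were raised before log2 was taken. A gene is reported if it reached 4 times the floor in any treatment, which held for 44 members (32 of 47 initiation factor genes and 12 of 17 synthetase genes), against 39.7% of all genes. The words rose and fell are kept for genes whose 2 values were 2-fold or more apart, and a fold with "at least" is one whose dimmer value did not exceed the floor. On each array 17.4% to 23.0% of probe sets reached 4 times the floor. Where any gene had probe sets on more than 1 chip type (1050 pairs), the spread of their log2 ratios gave a technical SD of 0.74 in the comparison of anti-TCR with mock. It was 0.48 with CSA, 0.70 with PKCi and 0.55 with Combo, and it holds nothing of the variation between cultures. In bulk RNA, fewer cells that express a gene and less of its RNA per cell cannot be told apart. All 4 comparisons use the anti-TCR arrays: a high anti-TCR value raises a gene's first ratio and lowers its other 3. Of 7 T cell markers 6 were reported and Cd5 stayed below the floor. With anti-TCR, Cd3g fell from 2570 with mock to 1276 and Cd3d from 1050 to 511. Cd3e went the other way (704 to 1147), under 2-fold. Thy1 read 3212 with mock and 2623.5 with anti-TCR, Cd4 read 610 and 608, and Cd247 passed 4 times the floor with anti-TCR only (209). Of 10 markers of B, myeloid, CD8 and NK cells 1 was reported, Cd14 (203 to 293). Ms4a1 lay above the floor throughout (63.7 to 87.8), Itgax reached 110.7 and Cd79a 59.7, and the other 6 stayed below it. The part of these markers' levels in the results was not tested.

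Promoter windows in the RefSeq table (build GRCm38.p6) were given for 10 of the 17 synthetase genes and 38 of the 47 initiation factor genes. A window runs from 250 bases before to 50 bases after a gene's start. The windows were searched on both strands for TGATGNAA, the core of the composite C/EBP and Atf4 site, and for CACGTG, the E-box, which reads the same on both strands; the motifs overlapped in 0 member windows. TGATGNAA was found in 5 of 10 synthetase windows, in 1 of 51 initiation factor windows (1.96%, Eif2s3x) and in 3.97% of all 32851 windows. The windows with a match belong to Aars, Gars, Iars, Tars and Yars, and the 4 that passed the intensity limit (Gars, Iars, Tars and Yars) are shown because the 5 genes' ratios for anti-TCR against mock, given below, lie apart from those of the other 5 on the brightest probe sets. Each match of the 4 is printed with its surroundings, 5′ to 3′ on the strand that reads TGATGNAA, with the motif in capitals.
Yars, chr4:129189895-129189924, plus strand: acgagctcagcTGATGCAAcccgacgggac
Gars, chr6:55037960-55037989, minus strand: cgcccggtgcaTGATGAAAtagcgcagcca
Iars, chr13:49682126-49682155, minus strand: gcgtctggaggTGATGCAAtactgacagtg
Tars, chr15:11399655-11399684, plus strand: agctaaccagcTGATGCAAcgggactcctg
Tars, Iars and Yars read TGATGCAA, and Gars reads TGATGAAA. The matches began 15 bases before the start in Tars and 30 before it in Gars, and 3 and 7 bases after it in Yars and Iars. The 250 bases before the start of Tars and Gars, printed in the direction of the gene so that the match appears as its reverse complement in capitals, are as follows.
Tars, chr15:11399659-11399908, minus strand: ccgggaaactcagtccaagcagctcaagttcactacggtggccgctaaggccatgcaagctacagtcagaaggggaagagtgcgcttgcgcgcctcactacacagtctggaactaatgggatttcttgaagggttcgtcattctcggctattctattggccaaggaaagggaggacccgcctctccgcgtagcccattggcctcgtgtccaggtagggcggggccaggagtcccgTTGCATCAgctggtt
Gars, chr6:55037751-55038000, plus strand: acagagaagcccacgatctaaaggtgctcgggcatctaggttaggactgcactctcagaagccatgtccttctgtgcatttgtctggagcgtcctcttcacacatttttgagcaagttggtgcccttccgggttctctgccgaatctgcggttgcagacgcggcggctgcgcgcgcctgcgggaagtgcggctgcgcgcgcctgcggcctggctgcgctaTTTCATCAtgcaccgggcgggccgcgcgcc
CACGTG was found in 3 of the 10 synthetase windows (Aars, Iars and Tars), in 11 of 51 initiation factor windows (21.6%, from 9 genes, among them Eif4e, Eif4a1, Eif5a2 and Eif1b) and in 7.15% of all windows. A match is a description of letters and not of binding.

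Anti-TCR against mock asks how these genes respond to engagement of the receptor. Synthetase genes were mostly higher and initiation factor genes were divided. Of 12 reported synthetase genes 4 rose (Tars, Iars, Cars and Gars) and 0 fell, with a median log2 ratio of 0.73. Of 32 reported initiation factor genes 5 rose (Eif3i, Eif2b5, Eif1a, Eif3j1 and Eif3b) and 2 fell (Eif5a2 and Eif4ebp2), with a median of 0.07. This class goes by symbol. Of the 2 that fell, Eif4ebp2 encodes a repressor that binds eIF4E, and eIF5A has no part in the initiation steps described above. Over all 6337 genes kept by the same filter, 11.0% rose and 13.3% fell, with a median of -0.07. The share that rose was 33.3% of the synthetase genes and 15.6% of the initiation factor genes. Since 3 synthetase genes (Cars, Lars and Yars) reached 4 times the floor only with anti-TCR, their ratios had to be above 0, and the counts were also taken over genes whose mean of the 5 treatments reached that limit. There 2 of 8 synthetase genes (Gars and Iars) and 4 of 30 initiation factor genes rose, against 10.5% of 5130 genes, with medians of 0.49 and 0.07.

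**Figure D1:**
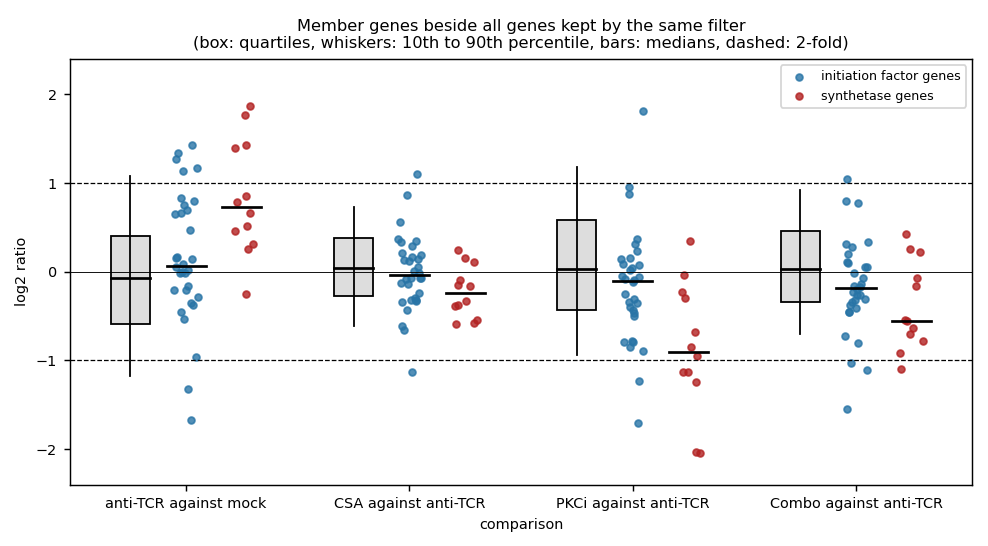
Log2 ratio (vertical axis) of the 32 initiation factor genes (blue) and the 12 synthetase genes (red) in the 4 comparisons, beside the 6337 genes kept by the same filter (grey box, quartiles; whiskers, 10th to 90th percentile; bars, medians; dashed lines, 2-fold). The synthetase points lie mostly above 0 for anti-TCR against mock (median 0.73) and mostly below 0 for PKCi against anti-TCR (median -0.90), while the initiation factor medians lie between -0.18 and 0.07.

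Among the free synthetases, Tars, which charges threonine tRNA, read 71.4 with mock, 262 with anti-TCR, 179 with CSA, 119 with PKCi and 313 with Combo. It rose 3.67-fold with anti-TCR, and Combo gave its highest value, as it did for Mars1 and Vars. Cars, for cysteine tRNA, read 78.4, 210.5, 161, 41.5 and 122 in the same order. Its anti-TCR value was 2.68-fold above mock and its PKCi value lay below the floor. Gars, for glycine tRNA, read 251, 660.4, 511, 411.5 and 350.3, so that mock was lowest and anti-TCR highest (2.63-fold). A second bright probe set of Gars, on chip type C, read 389 with mock and 277 with anti-TCR, a log2 ratio of -0.49 against 1.40 on the first, and the mean of both was 0.45, under 2-fold.

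Within the multisynthetase complex, Iars, for isoleucine tRNA, read 240.5 with mock, 821 with anti-TCR, 551 with CSA, 201 with PKCi and 385 with Combo. This was a 3.41-fold rise with anti-TCR, and the PKCi value was the one below mock. Lars, for leucine tRNA, read 163, 281, 187, 118 and 173; the anti-TCR value stood alone above 4 times the floor. The bifunctional Eprs, for glutamate and proline tRNA, read 215, 267.5, 241, 138.5 and 173. Mars1, for methionine tRNA, read 201, 239.6, 225, 204 and 279.6, a range under 2-fold. Qars, for glutamine tRNA, read 238, 326, 353, 265 and 292 on an i-suffixed probe set. Its second bright probe set, without a suffix, read 271.5 with mock and 242 with anti-TCR, a log2 ratio of -0.16 against 0.46 on the first. A letter suffix (r, i, f, s or g) in a probe set's name stands for probes that also match other transcripts or depart from the usual design rules.

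**Figure D2:**
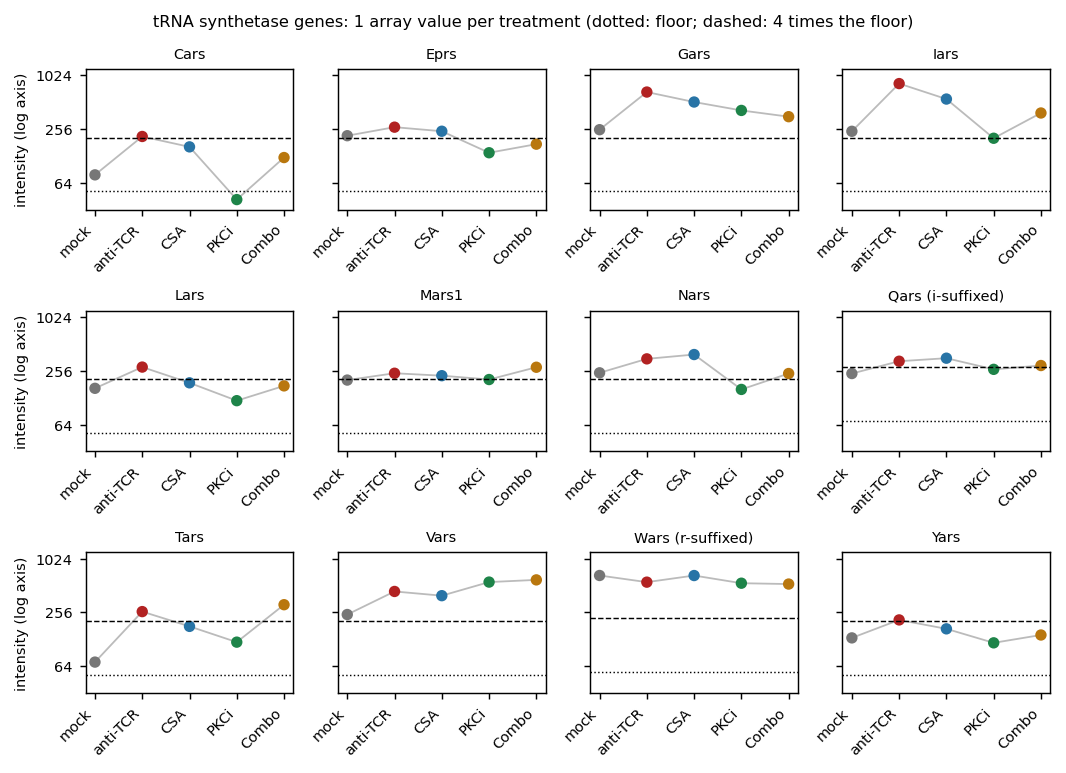
Intensity (log axis) of the 12 reported synthetase genes under the 5 treatments, 1 array value per point (dotted line, floor; dashed line, 4 times the floor). Iars runs from 240.5 with mock to 821 with anti-TCR and 201 with PKCi, and Cars, Lars and Yars cross the dashed line with anti-TCR only.

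Of the remaining free synthetases, Vars, Wars and Yars had no 2-fold ratio in the 4 comparisons, and Nars had 1, with PKCi. Vars, for valine tRNA, read 243 with mock, 439.6 with anti-TCR, 394 with CSA, 559.6 with PKCi and 592 with Combo, and so was higher in each stimulated arm than in mock. Nars, for asparagine tRNA, read 242, 347, 388, 158 and 238, and Yars, for tyrosine tRNA, 133, 211, 168, 117 and 143. Wars, for tryptophan tRNA, read 663 with mock, 559 with anti-TCR, 662 with CSA, 544 with PKCi and 532 with Combo on an r-suffixed probe set, and between 208 and 269 on a second. The 5 synthetase genes that were not reported (Aars, Hars, Kars, Rars and Sars) peaked at 2.07 to 3.79 times the floor. Aars, for alanine tRNA, came nearest, with 109 under mock, 194 under anti-TCR and 94.8 under PKCi; the nearest gene inside the limit was Cars, at 4.12 times the floor.

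Set against the promoter windows, the synthetase genes with TGATGNAA (Aars, Gars, Iars, Tars and Yars) had log2 ratios of 0.67 to 1.87 for anti-TCR against mock (median 1.40). Those whose window lacks it (Eprs, Kars, Mars1, Qars and Sars) had -0.25 to 0.46 (median 0.25). On the brightest probe sets the ranges did not overlap, but the second bright probe set of Gars, at -0.49, lay below all 5 genes without the motif. With PKCi the first 5 lay between -2.03 and -0.68 and the others between -0.95 and -0.23, which overlap, and with Combo between -1.09 and 0.26 and between -1.06 and 0.22. With CSA the ranges were -0.57 to -0.33 and -0.15 to 0.21. These 10 genes include Aars, Kars and Sars, which were not reported, and no window was given for the other 7, so the division is a description of 10 genes read mostly on the same arrays.

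Initiation factor genes are taken by the step they serve. Among scanning and start codon factors 1 of 6 reported genes rose and 0 fell with anti-TCR, where 11.0% and 13.3% of all genes did. Eif1a, which encodes an eIF1A protein, read 155 with mock, 374 with anti-TCR, 339.5 with CSA, 115 with PKCi and 214 with Combo, a 2.41-fold rise with the PKCi value below mock. Its relative Eif1ax read 1461, 2547, 2162, 1989 and 2049.5 on an f-suffixed probe set, and its bright probe sets did not go together (log2 ratios of -0.64 to 1.32 for anti-TCR against mock). Eif5, which makes eIF2 hydrolyse GTP at the start codon, read 589, 924, 739, 655 and 561. Eif1b, a second eIF1 gene, was level with mock (741) under anti-TCR (751) and highest with CSA (1106), and Eif1ad and the subunit joining factor gene Eif5b had ratios of -0.01 and 0.09.

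In the eIF2 group the reported subunit gene, Eif2s3x, lay between 886 and 1228, and the kinase gene Eif2ak1, which phosphorylates eIF2 alpha, between 333 and 455. The eIF2B subunits differed from each other. Eif2b5, the catalytic subunit, read 96.2 with mock, 244 with anti-TCR, 307 with CSA, 224 with PKCi and 183 with Combo, a 2.53-fold rise, with every stimulated arm above mock. Eif2b4 was level (1198 to 1408, f-suffixed), and Eif2b1, a regulatory subunit, read 178, 123, 225, 160 and 214, lowest with anti-TCR.

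Of 10 reported eIF3 subunit genes 3 rose and 0 fell, where 11.0% and 13.3% of all genes did, with a median of 0.59. Of the 3, Eif3i did not reach the limit by its mean. Eif3b, a core scaffold subunit, read 669.7 with mock, 1473 with anti-TCR, 1460 with CSA, 1089 with PKCi and 1160 with Combo (2.20-fold with anti-TCR). Eif3j1, a loosely bound subunit, read 586, 1316, 858, 733 and 646 (2.25-fold), so that the Combo value came close to mock. Eif3i read 116, 312, 142, 298 and 107 on an r-suffixed probe set (2.70-fold with anti-TCR): anti-TCR and PKCi were high and the other 3 low. A dimmer, f-suffixed probe set of Eif3i, under 4 times its floor, was level instead (159, 163, 179, 139 and 174). Eif3c read 1311, 2128, 1354.5, 1233 and 1554 (log2 ratio 0.70), and its second bright probe set 382, 1132, 699.8, 503 and 553 (1.57). Eif3d (0.76), Eif3l (0.47) and Eif3a (0.16) were also higher, while Eif3e (-0.16), Eif3m (-0.36) and Eif3k (-0.45) were lower, none of them 2-fold.

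**Figure D3:**
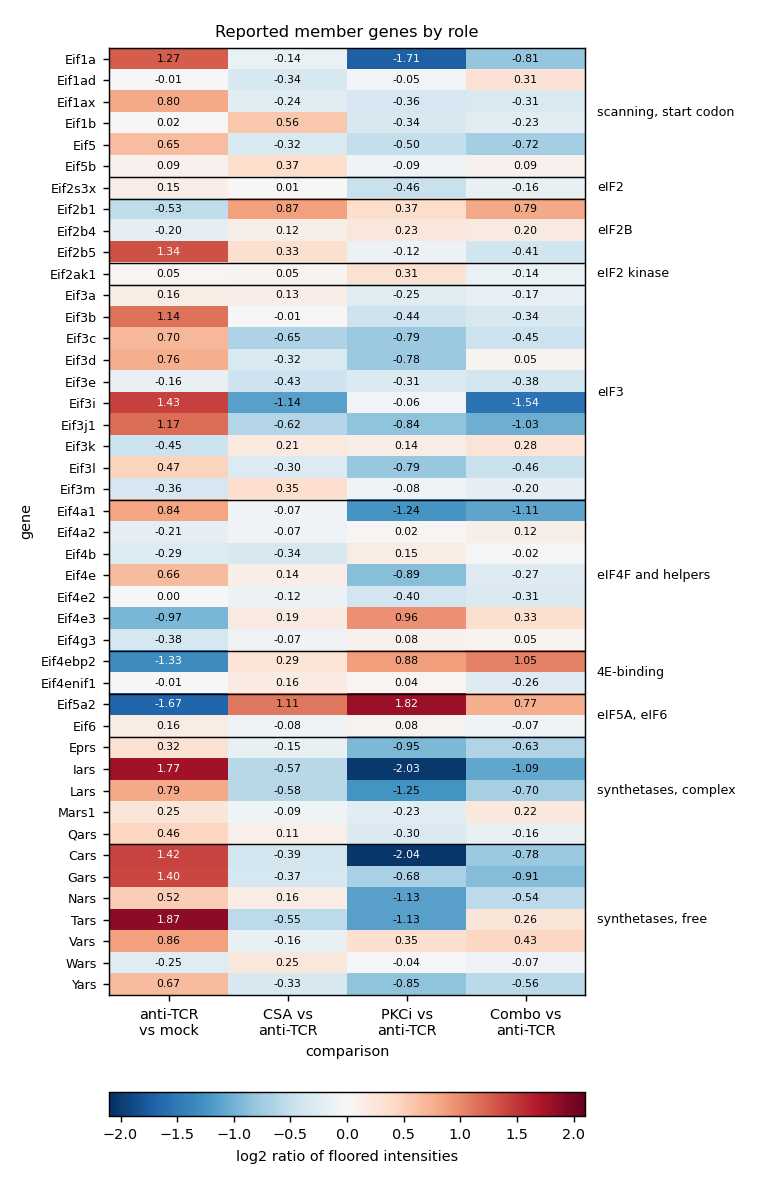
Log2 ratios of floored intensities for the 44 reported genes (rows, ordered by role) in the 4 comparisons (columns), with red above 0 and blue below. Eif3b, Eif3c, Eif3d, Eif3i and Eif3j1 (0.70 to 1.43) and 11 of 12 synthetase genes are red in the first column, and Eif5a2 runs the other way (-1.67, then 1.82 with PKCi).

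In the cap-binding group 0 of 7 reported genes rose or fell with anti-TCR, where 11.0% of all genes rose and 13.3% fell. Eif4a1, the main RNA helicase of eIF4F, read 200.1 with mock, 357 with anti-TCR, 341 with CSA, 151.5 with PKCi and 166 with Combo on an r-suffixed probe set, which is its one single-gene probe set. Its paralogue Eif4a2 was level between 1522 and 1850. Eif4e, the cap-binding protein, read 246, 388, 429, 209 and 323 on an f-suffixed probe set, and Eif4e3, a divergent relative, went the other way: 1071, 548, 626, 1065 and 690.5, with 528.5, 423, 436, 879 and 688 on its second bright probe set. Eif4g3, Eif4b (g-suffixed) and Eif4e2 had ratios of -0.38, -0.29 and 0.00.

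Eif4ebp2, which encodes a repressor that binds eIF4E and is released by mTOR signalling, fell 2.51-fold, from 902 with mock to 360 with anti-TCR. It read 439 with CSA, 661 with PKCi and 745 with Combo, so that mock was highest and anti-TCR lowest; the second probe set read 449.5, 246, 198, 230 and 284. The eIF4E transporter Eif4enif1 was level (861 to 1158), and Eif4ebp1 was not reported (77.7 with mock and 152 with anti-TCR). Eif5a2, an isoform gene of eIF5A, a factor that carries the amino acid hypusine, fell 3.19-fold on an i-suffixed probe set. It read 1686, 529, 1138, 1862 and 902.5, with anti-TCR lowest, and its other probe set stayed below the floor. Eif6, an anti-association factor of the large subunit, read 407 to 478, while its second bright probe set went from 69.1 to 178 (1.36). The 15 initiation factor genes that were not reported peaked at 0.21 to 3.69 times the floor, 5 of them never above it, among them Eif5a and Eif4h.

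**Figure D4:**
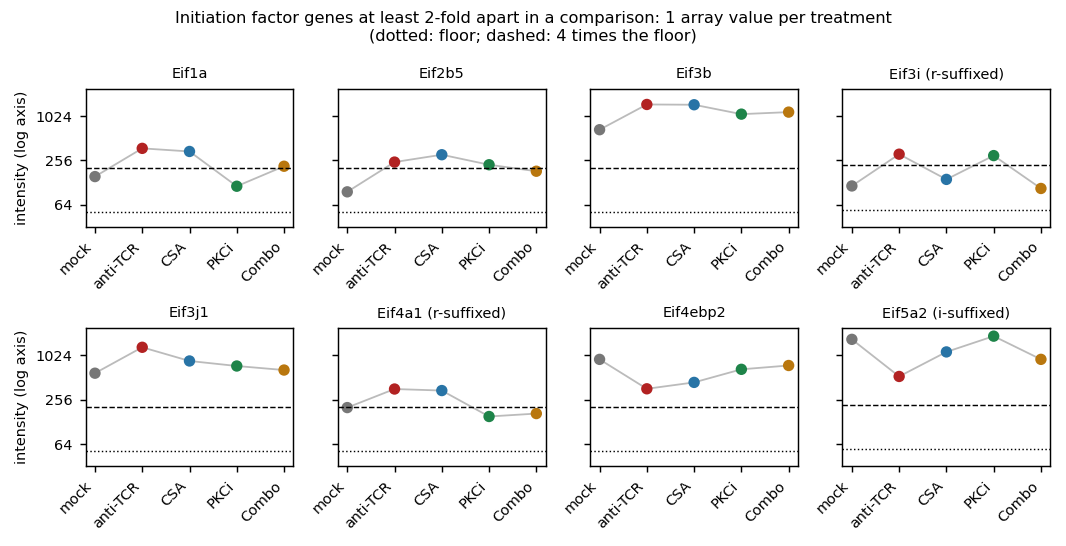
Intensity (log axis) of the 8 initiation factor genes at least 2-fold apart in a comparison, under the 5 treatments, 1 array value per point (dotted line, floor; dashed line, 4 times the floor). Eif1a and Eif4a1 are lowest with PKCi (115 and 151.5), and Eif4ebp2 and Eif5a2 are lowest with anti-TCR (360 and 529).

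CSA against anti-TCR asks which of these values differ when CSA, the calcineurin blocker, is added. With 1 array per treatment and chip type, a difference does not show a need for calcineurin. Of the 44 reported genes 1 rose and 1 fell, against 5.14% and 4.81% of all genes, so the members' 2.27% in each direction was below the background. Eif5a2 rose 2.15-fold (529 to 1138) and Eif3i fell 2.20-fold (312 to 142), both on suffixed probe sets. Over genes whose mean reached the limit, Eif5a2 rose and 0 members fell, against 4.41% and 4.11% of all genes. The synthetase median was -0.24, with 9 of 12 genes below 0 and none 2-fold, and the initiation factor median -0.04. Cars, Lars and Yars had to be below 0, since only their anti-TCR values reached 4 times the floor. The ratio of the CSA arm to mock does not use the anti-TCR arrays, but the filter does. Cars, Lars and Yars passed the filter only through anti-TCR, here and for the other arms against mock. The CSA arm was 2-fold above mock for Cars, Gars, Iars and Tars (4 of 12, background 8.52%), with a synthetase median of 0.62. For Gars the second bright probe set went the other way, from 389 with mock to 228 with CSA. Among the initiation factors Eif1a, Eif2b5 and Eif3b were 2-fold higher (3 of 32) and Eif4ebp2 was 2-fold lower (background 7.57%).

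PKCi against anti-TCR asks the same of the PKC inhibitor, with the same limit. Of the 12 reported synthetase genes 5 fell and 0 rose, 41.7% against 9.11% of all genes, and their median was -0.90 against 0.03. Of the 12, Cars, Lars and Yars had to lie below 0, since only their anti-TCR values reached 4 times the floor. Cars fell at least 4.12-fold, from 210.5 to below the floor, Iars 4.08-fold (821 to 201), Lars 2.37-fold (281 to 118), Nars 2.20-fold (347 to 158) and Tars 2.19-fold (262 to 119). Over genes whose mean reached the limit the count was 2 of 8 (Iars and Nars, background 8.56%), with a median of -0.49. Over all 17 synthetase genes, with no limit, 16 lay below 0 and 1, Vars, above it. Of all 15964 genes with no limit, 34.2% lay below 0 and 34.1% above, the others at 0. The second bright probe set of Qars had 0.02. Among initiation factors 2 of 32 fell, 6.25% against that 9.11%: Eif1a 3.26-fold (374 to 115) and Eif4a1 2.36-fold (357 to 151.5). Eif5a2 rose 3.52-fold (529 to 1862), 1 of 32 against 13.9% of all genes, and Eif4e3 had 0.96 and 1.06 on its 2 probe sets. Gars had similar ratios on both of its probe sets (-0.68 and -0.65). Against mock the PKCi arm had a synthetase median of -0.22, with 1 of 12 genes 2-fold higher, Vars (background 6.80%), and 0 lower (background 3.46%); for the initiation factors it was -0.09, with Eif2b5 and Eif3i higher.

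Combo against anti-TCR asks which values differ when blockers of mTOR, MEK and p38 are added, which the mixture does not separate. The same limit holds here. Of 12 synthetase genes 1 fell, Iars (2.13-fold, 821 to 385), and 0 rose, with a median of -0.55 and 9 of 12 below 0. Here too Cars, Lars and Yars had to be below 0. Of 32 initiation factor genes 3 fell, Eif3i (2.92-fold), Eif4a1 (2.15-fold, 357 to 166) and Eif3j1 (2.04-fold, 1316 to 646), and Eif4ebp2 rose 2.07-fold (360 to 745; second probe set 0.21). The background was 5.08% lower and 8.32% higher, and 9.09% of the 44 members fell. Over genes whose mean reached the limit 3 of 38 members fell and 1 rose, against 4.25% and 7.39%. With median scaling of the arrays Iars had a log2 ratio of -0.98 and Eif3j1 -0.91, and Eif4a1 came to just under 2-fold, which leaves Eif3i as the 1 member that fell; with quantile normalization Eif4ebp2 had 0.99 and Eif3j1 -0.95. Against mock, the Combo arm was 2-fold higher for Tars and Vars (2 of 12, background 8.40%; median 0.39), and of 32 initiation factor genes 0 were 2-fold apart in either direction (background 5.74% lower).

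The size of these ratios has to be read with the probe sets. Of the 44 reported genes 11 had a further bright probe set, and its ratio had the same sign as the first in 7 genes when anti-TCR was compared with mock. The sign was shared in 5 genes with CSA, in 7 with PKCi and in 7 with Combo. The median gap between the brightest and the second was 0.64, 0.23, 0.29 and 0.58. Over pairs of bright probe sets on different chip types the members had the same medians (11 pairs). For all genes (1050 such pairs) the medians were 0.58, 0.39, 0.57 and 0.46. Eif2b4, Eif3c and Eif4e3 kept their sign in all 4 comparisons, Eif1ax and Qars in none. Of the 14 genes that rose or fell in a comparison, Gars and Eif4ebp2 had a second bright probe set.

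**Figure D5:**
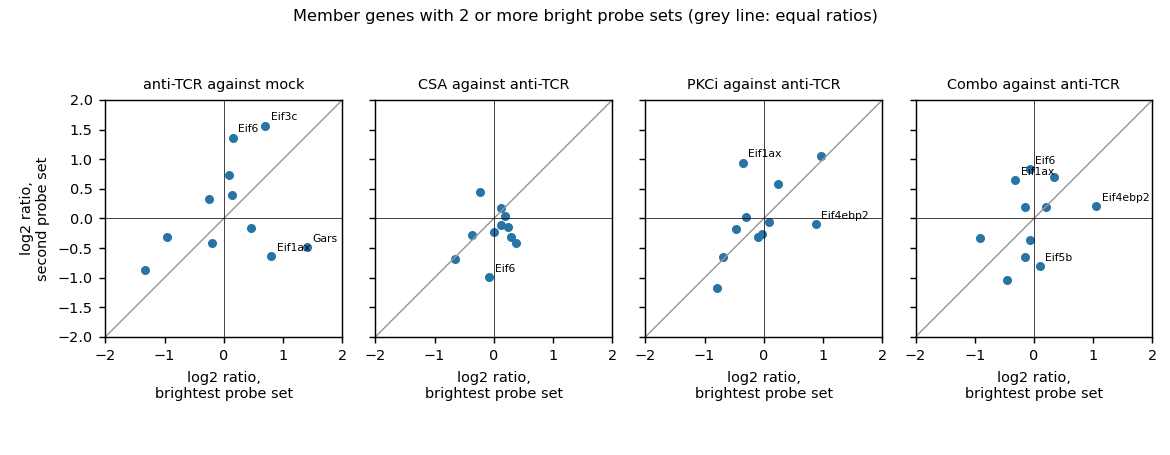
Log2 ratio on the second brightest probe set (vertical) against that on the brightest (horizontal) for the 11 genes with 2 or more bright probe sets, in each of the 4 comparisons; the grey line marks equal ratios and genes more than 0.8 apart are named. Gars (1.40 and -0.49) and Eif1ax (0.80 and -0.64) lie in the lower right quadrant of the first panel.

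Other genes of the same machinery, on lists that are not members, show what surrounds these values. Eef1e1, a small scaffold protein of the multisynthetase complex, read 449 with mock, 1632 with anti-TCR, 1266.5 with CSA, 340.4 with PKCi and 618 with Combo, which are log2 ratios of 1.86, -0.37, -2.26 and -1.40. The scaffold genes Aimp1 and Aimp2 had -0.62 and 0.06 with anti-TCR, and 1 of 4 reported genes of that list rose. Mitochondrial synthetase genes, which serve the organelle's own ribosomes, gave 0 up and 1 down (Rars2, 264 to 117) of 5 reported, with a median of -0.33. Of 8 elongation and termination factor genes 0 rose and 2 fell, against 11.0% and 13.3% of all genes: Eef2, the translocase (1069.5 to 522), and its kinase gene Eef2k (697 to 209).

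Among 14 reported genes of a list of regulators of initiation and genes linked to them, 2 rose and 4 fell with anti-TCR. Of all genes 11.0% rose and 13.3% fell. The 2 that rose were the transcription factor Atf4 and asparagine synthetase (Asns), a known target of it. Neither is itself a regulator of initiation. Atf4 read 538 with mock, 1960 with anti-TCR, 1490 with CSA, 1162 with PKCi and 1549 with Combo, and Asns 395.5, 1325, 654, 278 and 556. With PKCi, Asns had a log2 ratio of -2.25 and Atf4 -0.75. The 4 that fell were Paip2 (392.1 to 86.0), which inhibits poly(A)-binding protein, Pdcd4 (1432 to 327), which inhibits the eIF4A helicase, Mcts1 (879 to 367.5), which serves reinitiation, and Mknk2 (853 to 375), the kinase that phosphorylates eIF4E. With PKCi, Paip2, Pdcd4 and Mknk2 read 390, 916 and 1856. Whether their levels bear on those of the synthetase and initiation factor genes was not tested.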

How the data were processed

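RNA pools of 5 treatments were read on 3 chip types, 15 arrays in all. The deposited values are array intensity values, linear and at least 0, 1 per probe set; the authors' scaling and software are not given in the sources used here, but within each chip type the arrays' means, trimmed by 2%, differed by at most 0.242%. The number of arrays limits the precision. Groups come from the array titles. Gene symbols come from the platform annotation of GEO, and the gene IDs of all 64 members matched the RefSeq table (GRCm38.p6), which changed 0 symbols. Probe sets with several symbols (724) or none (6846) were left out. Values below the floor were raised to it. Log2 ratios were computed on the deposited intensities with Python 3.11.15, numpy 2.4.6 and pandas 2.3.3 (figures: matplotlib 3.10.9), and the steps were tested on simulated data. Values of all 5 treatments are given for members at least 2-fold apart in a comparison and for the 2 highest and 2 lowest ratios of each class, and other reported members may be named; the arms against mock, the promoter division and genes that are not 2-fold apart were singled out after values were seen. The members and lists were chosen with earlier results of these data known. Alternatives of scaling, floor, probe set and filter (9 in all) were tried. Sequences are from RefSeq. Other promoter sequences with a match are not reported here.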

Additional observations from a re-analysis of the deposited data

Results flagged for a closer look

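One result lies outside the genes described. A probe set of chip type B annotated to Aars together with Exosc6, from which no gene is named, read 296 with mock, 928 with anti-TCR, 793 with CSA, 625 with PKCi and 453 with Combo. Its anti-TCR value was 3.14-fold above mock. It was left out because it carries more than 1 symbol, and the single-gene probe set of Aars read 109 and 194.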

How the results depend on the processing

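No paired analysis was possible because each treatment was read by a single array on every chip type; for the same reason no replicate could be left out. The alternatives changed no sign of a ratio that was itself 2-fold or more. Smaller ratios were followed only for the 14 genes that rose or fell in a comparison. Sign changes among these were both for CSA against anti-TCR. Eif3b went from -0.01 to 0.09 with quantile normalization and Eif4ebp2 from 0.29 to -0.01 with the mean of bright probe sets. Signs of the other reported genes were not followed under the alternatives. Of 144 summary values 121 stayed within 1.5 times the count, or, for a median, within the technical SD divided by the root of the number of genes, and 23 moved. Among values of genes that rose or fell, 197 stayed at 2-fold or more and 7 dropped under it, counted only where the alternative kept the gene. Calls lost because the gene was not kept enter neither number, nor the statement on signs. Examples are Cars, Lars, Tars and Eif3i with the filter on the mean, and Eif5a2 with plain probe sets only. With quantile normalization the Combo count higher was 0. With median scaling the Combo count lower was 1. Raising values to 2 times the floor made some ratios smaller, though still 2-fold or more. Cars then had -1.04 for PKCi against anti-TCR, where it had -2.04 as reported. For anti-TCR against mock Cars had 1.04 and Tars 1.36, where they had 1.42 and 1.87 as reported. With the mean of bright probe sets the PKCi count higher was 2 and the Combo count higher 0, and Gars against mock had 0.45. With plain probe sets only, the counts were 1 lower for anti-TCR, 0 higher and 0 lower for CSA, 0 higher for PKCi and 2 lower for Combo, and the initiation factor median for PKCi was -0.25. With 8 times the floor as minimum (4 synthetase genes), the synthetase medians were 1.13 for anti-TCR and -0.36 for PKCi, and the counts 4 higher for anti-TCR, 0 lower for CSA, 1 lower for PKCi and 2 lower for Combo. With the mean of 5 treatments at 4 times the floor, the synthetase medians were 0.49 for anti-TCR, -0.49 for PKCi and -0.35 for Combo, and the counts lower 0 for CSA and 4 for PKCi. With no filter the PKCi count higher was 2 and the Combo synthetase median -0.28. Fewer genes enter under the stricter filters; otherwise the cause was not tested. The synthetase median ranged from 0.49 to 1.13 for anti-TCR against mock and from -0.98 to -0.36 for PKCi. Other scalings moved the median of all genes by less than 0.1 in log2.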
